A study of Mus musculus with 14 samples.

Results

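Bulk RNA sequencing compared PSGL1lo with PSGL1hi CD4+ T cells sorted from the spleens of mice with chronic graft-versus-host disease (cGVHD). All genes of the 4 spleen libraries with those labels were used, 2 PSGL1lo and 2 PSGL1hi, of 14 libraries in the series. In the cGVHD animals, BALB/c recipients had received bone marrow depleted of T cells together with splenocytes, both from C57BL/6 donors, and both fractions came from these animals. Cells of donor origin were sorted by surface PSGL1 30 days after transplantation. GVHD-free spleen PSGL1lo cells (2 libraries, from recipients of the marrow alone) and the PSGL1lo and PSGL1hi fractions of cGVHD liver and lung (2 libraries each) served only to set the spleen values beside. The labels give neither the age and sex of the animals, nor how many were pooled into a library, nor where the gate between the fractions lay. They do not state that replicates came from separate animals, so a p-value reflects spread among libraries that may be technical repeats.

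PSGL1 (P-selectin glycoprotein ligand 1) is a mucin-like protein of the leukocyte surface. When its sugars carry the right modifications it binds selectins on endothelium and platelets and lets cells roll along vessel walls, and it can also restrain T cell responses. T follicular helper cells, which drive germinal centre B cells through CXCR5, interleukin-21, ICOS and CD40 ligand, carry little PSGL1. Helper T cells outside follicles can help B cells too, and antibodies and fibrosis are features of cGVHD in many organs.

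Spleen libraries held 13283091 and 14905806 counts in PSGL1lo cells and 21346229 and 23000993 counts in PSGL1hi cells. Levels are in CPM, the share of a scaled library that is read from a gene times a fixed constant, so they compare libraries but not genes of unequal length. A count of 0 allows a level of up to 3 counts, which is 0.196 to 0.223 CPM in PSGL1lo and 0.130 to 0.140 CPM in PSGL1hi libraries, counting error only. Ratios are log2 of PSGL1lo over PSGL1hi with their standard error (SE), and p-values are adjusted over all 13780 genes tested (edgeR's quasi-likelihood test). A gene was called where the adjusted p was under 0.05. Ribosomal RNA (Rn45s) took 3.29% and 2.85% of counts in PSGL1lo libraries and 2.33% and 1.78% in PSGL1hi libraries.

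The sort could be followed in the transcripts. Selplg, the gene of PSGL1, stood at 281 and 238 CPM in the PSGL1lo libraries, against 516 and 491 CPM in the PSGL1hi libraries, a log2 ratio of -0.96 ± 0.09 (adjusted p = 5e-08, edgeR). The groups did not overlap, as for 66.0% of all genes tested, and the PSGL1lo fraction still held ample Selplg transcript. Cd4, the defining gene of the sort, stood at 1633 and 1530.4 CPM in PSGL1lo and 1538 and 1512 CPM in PSGL1hi libraries (log2 ratio 0.05 ± 0.06). The gene of the CD4 lineage factor ThPOK, Zbtb7b, stood at 181 and 163 CPM in PSGL1lo and 174 and 156 CPM in PSGL1hi libraries. Neither gene passed the test. Transcripts of other cell types were not absent, and are described below beside the gene groups they bear on.

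Of the 13780 genes tested, 4483 were called (32.5%), 2177 higher (15.8%) and 2306 lower (16.7%) in PSGL1lo cells. Most differences were small: 2491 called genes differed by under 1.5-fold, and 384 were higher and 611 lower by at least 2-fold. Without PSGL1hi replicate 2 the count of higher genes was 1401. The libraries of the fractions did not overlap in 66.0% of all genes tested, 4450 higher and 4640 lower in PSGL1lo cells. These shares are the background against which the counts of each gene group are to be read.

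**Figure D1:**
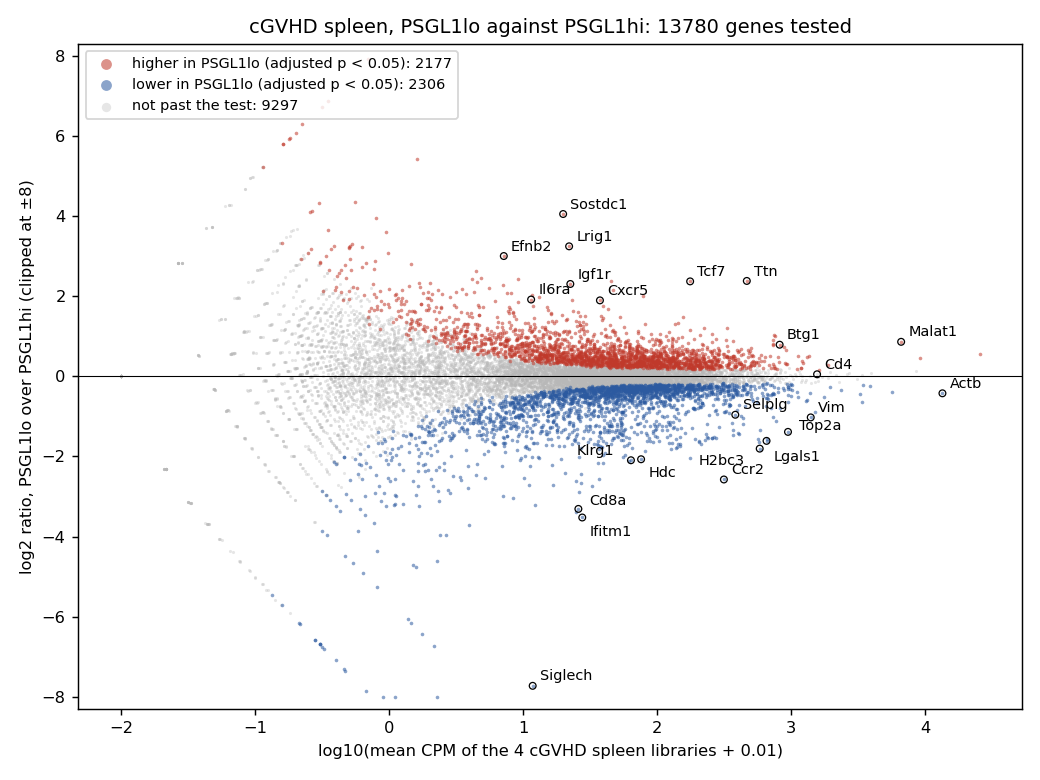
Every point is a gene, placed by its mean level over the 4 spleen libraries (x axis, log10 CPM) and its log2 ratio of PSGL1lo over PSGL1hi (y axis); red genes were higher, blue genes lower and grey genes not past the test. Tcf7 and Ttn stand out among abundant higher genes and Ccr2 and Lgals1 among abundant lower ones, while Siglech, with 3 counts in the PSGL1lo libraries, has a fitted ratio that measures no size.

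The size of the ratio went with transcript length. When 11500 genes with a mean of at least 1 CPM were split into 5 equal parts by their longest annotated transcript, the median log2 ratio ran from -0.11 in the shortest through -0.08, -0.01 and 0.03 to 0.15 in the longest. Among the shortest genes 9.83% were higher and 23.3% lower, and among the longest 34.7% were higher and 11.9% lower. In liver the medians lay between -0.04 and 0 and in lung between -0.06 and -0.03, lowest in each for the longest genes. Between the 2 PSGL1hi replicates of spleen (replicate 1 over replicate 2) the same medians ran from -0.05 in the shortest to 0.04 in the longest, and between the PSGL1lo replicates they lay between -0.005 and 0.014. The part of transcript length in the results below was not tested. Among the called genes with the largest rise in CPM were several of the longest messages, such as Ttn, Macf1, a linker of actin and microtubules, and Utrn, the dystrophin relative utrophin. Macf1 stood at 1525 and 1527 CPM in PSGL1lo and 1079 and 1086 CPM in PSGL1hi libraries (log2 ratio 0.50 ± 0.10), and Utrn at 910.18 and 926 CPM in PSGL1lo and 532 and 533 CPM in PSGL1hi (0.79 ± 0.09).

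The largest rise among genes above 10 CPM was that of Sostdc1, which encodes a secreted antagonist of bone morphogenetic proteins and Wnt ligands made by mouse follicular helper T cells. It stood at 36.4 and 38.4 CPM in PSGL1lo libraries, against 1.92 and 2.55 CPM in PSGL1hi libraries (log2 ratio 4.05 ± 0.14, adjusted p = 2.1e-14, edgeR). The PSGL1lo libraries were high and close to each other, and the PSGL1hi libraries were low. Efnb2, the gene of the membrane ligand ephrin-B2, stood at 11.8 and 13.5 CPM in PSGL1lo and 1.87 and 1.30 CPM in PSGL1hi libraries (3.01 ± 0.24). Lrig1, which restrains receptor tyrosine kinases, stood at 40.00 and 39.4 CPM in PSGL1lo and 3.79 and 4.54 CPM in PSGL1hi (3.25 ± 0.12). For each of the 3 genes the fractions did not overlap, which the rule that picked them required.

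Further receptors rose with them. Ntrk3, the neurotrophin-3 receptor TrkC, rose by 2.28 ± 0.20 on the log2 scale, and Vipr2, a receptor of vasoactive intestinal peptide, by 1.68 ± 0.22. The inhibitory sialic acid receptor Cd22, best known from B cells, stood at 15.6 and 12.7 CPM in PSGL1lo and 4.77 and 3.11 CPM in PSGL1hi libraries (1.85 ± 0.21). Nuclear and cytoskeletal proteins were a second set. The nuclear factors Aff3 and Tshz2 rose by 1.76 ± 0.11 and 2.08 ± 0.19, the actin-associated Synpo by 1.90 ± 0.13, and the neuron navigator Nav2 by 2.15 ± 0.13. Csgalnact1, an enzyme of chondroitin sulphate synthesis, rose by 1.98 ± 0.19, and P3h2, a collagen prolyl hydroxylase, by 1.72 ± 0.21. The PSGL1lo libraries were above both PSGL1hi libraries for each of these 9 genes, as the rule that picked them required.

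Genes with the largest falls included receptors of inflammatory mediators. Ccr2, the receptor of the monocyte chemoattractant CCL2, stood at 89.98 and 90.2 CPM in PSGL1lo libraries, against 496 and 577 CPM in PSGL1hi libraries (log2 ratio -2.57 ± 0.10, adjusted p = 8.4e-14, edgeR). Its PSGL1lo values were nearly equal and well below both PSGL1hi values. The leukotriene B4 receptor Ltb4r1 (-2.71 ± 0.22), the chemokine receptor Ccr1 (-2.20 ± 0.18) and the histamine receptor Hrh4 (-2.09 ± 0.21) fell as well. Hdc, which makes histamine from histidine, stood at 31.4 and 26.8 CPM in PSGL1lo and 118 and 126 CPM in PSGL1hi libraries (-2.07 ± 0.12). Cyp11a1, the first enzyme of steroid hormone synthesis and also expressed by activated type 2 helper cells and basophils, stood at 6.56 and 7.38 CPM in PSGL1lo and 41.8 and 43.7 CPM in PSGL1hi (-2.61 ± 0.20).

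Genes of the cytoskeleton and of cell motility were among the abundant messages that fell. Vim, the intermediate filament vimentin, stood at 931 and 906 CPM in PSGL1lo and 1841 and 1895 CPM in PSGL1hi libraries (-1.02 ± 0.07). Lgals1, the galactoside-binding galectin-1, stood at 331 and 312 CPM in PSGL1lo and 937 and 1028 CPM in PSGL1hi (-1.61 ± 0.08). Beta-actin (Actb, -0.42 ± 0.09), the actin cross-linker filamin A (Flna, -0.63 ± 0.07), thymosin beta 4 (Tmsb4x, -0.45 ± 0.08) and beta-tubulin (Tubb5, -0.89 ± 0.07) also fell. Anxa1, an anti-inflammatory phospholipid-binding protein (-2.57 ± 0.12), and the epithelial cadherin Cdh1 (-2.24 ± 0.18) were lower by more than 4-fold.

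**Figure D2:**
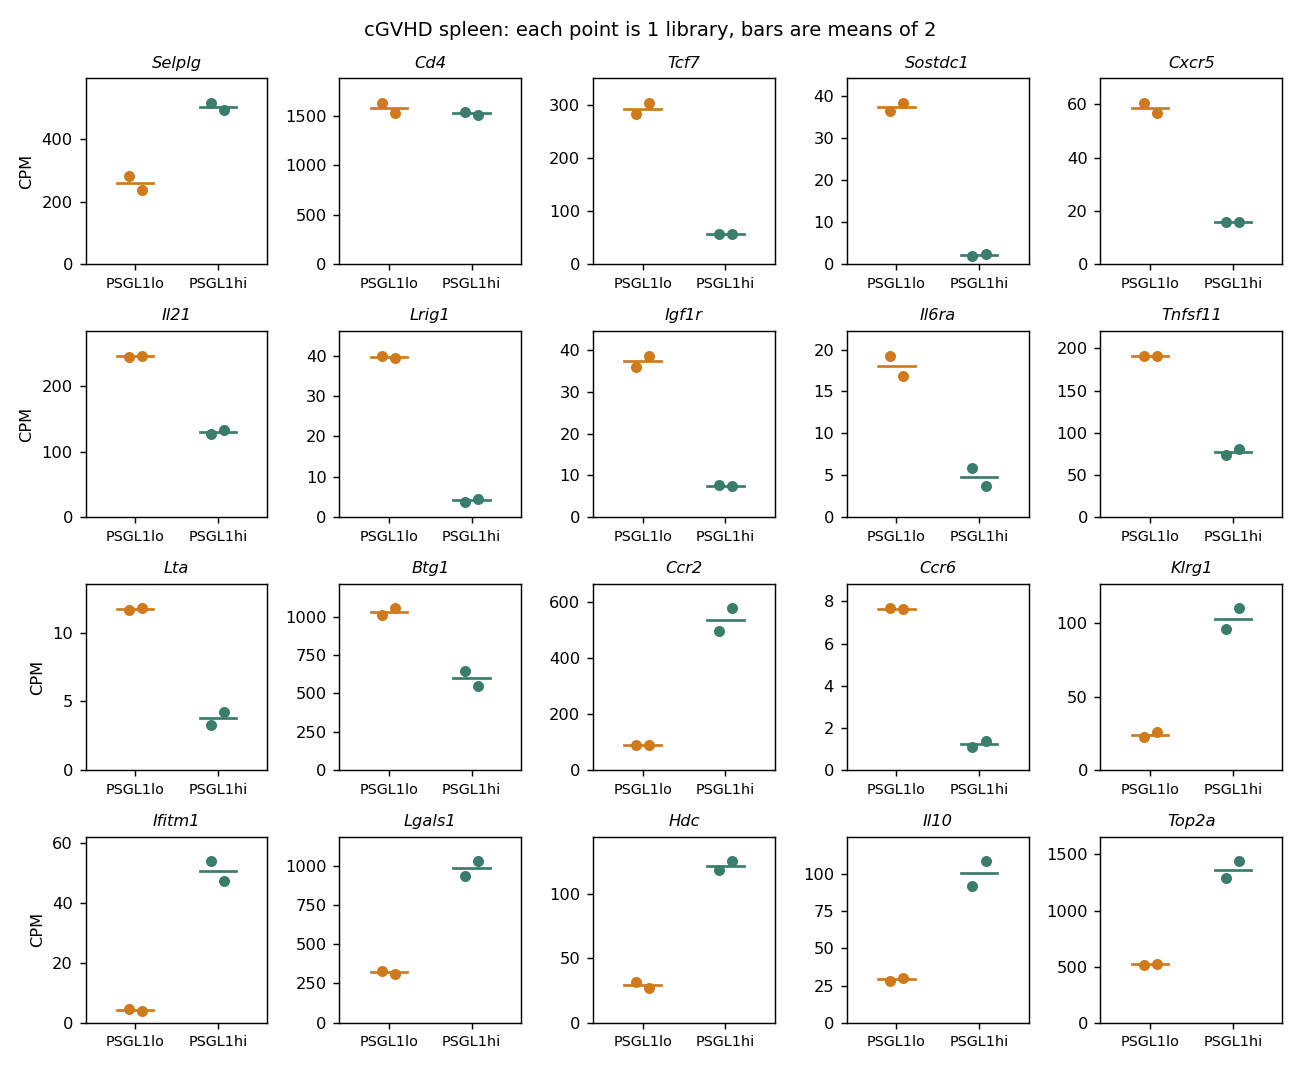
Levels in CPM (y axes from 0, each with its own range) of 20 genes in each PSGL1lo library (left, orange) and each PSGL1hi library (right, green), with bars at the means of 2. In every panel but that of Cd4 the fractions do not overlap, as for 66.0% of all genes tested. Sostdc1 and Lrig1 are near the base of the axis in PSGL1hi cells and Ifitm1 and Ccr2 in PSGL1lo cells.

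The genes of cell division were lower in PSGL1lo cells almost without exception. Of 62 mitosis and G2/M genes 0 were higher, 61 lower and 1 did not pass, with a median log2 ratio of -1.34 against 0 over all genes tested. The remaining gene was Pttg1, which encodes securin (-0.14 ± 0.09). Of 50 DNA replication and G1/S genes 0 were higher and 49 lower, with a median of -0.74. Ccnb1, the cyclin of mitotic entry (-1.79 ± 0.19), and Ube2c, the ubiquitin-conjugating enzyme of the anaphase-promoting complex (-1.71 ± 0.16), were among those with the largest falls. Top2a, the topoisomerase that untangles sister chromatids, stood at 517 and 527 CPM in PSGL1lo and 1288 and 1439 CPM in PSGL1hi libraries (-1.39 ± 0.09). Among replication genes the helicase component Cdc45 (-1.31 ± 0.14), the origin factor Mcm10 (-1.23 ± 0.13) and the repressor E2f8 (-1.22 ± 0.14) fell most.

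D cyclins and genes that hold the cycle back, listed together, did not move as a block. Of 28 D cyclins, CDK inhibitors and quiescence genes 4 were higher and 10 lower (6 lower without PSGL1lo replicate 2), with a median log2 ratio of -0.09. The quiescence factor Klf4 stood at 38.4 and 40.5 CPM in PSGL1lo and 15.02 and 12.8 CPM in PSGL1hi libraries (1.51 ± 0.11), and the antiproliferative Btg1 at 1014 and 1056 CPM in PSGL1lo and 646 and 551 CPM in PSGL1hi (0.79 ± 0.08). The CDK inhibitors Cdkn2b (-1.67 ± 0.21), Cdkn2c (-1.27 ± 0.09) and Cdkn1a (-0.70 ± 0.16) fell. Cdkn1b, another inhibitor, was at 0.12 ± 0.07 and did not pass.

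The promoters of the division genes are shown because genes of these lists fell together. Windows ran from 250 bases upstream to 50 bases downstream of each RefSeq start on GRCm38.p6, and words were searched on both strands. CHR words (TTTGAA or TTCGAA) are known from genes repressed outside G2/M, the CCAAT box binds nuclear factor Y, and E2F words were TTGGCGC, then also TTCCCGC, next TTGCCGC, and last of all TTCGCGC. In the lines below capitals mark CHR and CCAAT words in the first 4 promoters, E2F words in the next 3 and CCAAT words in the last.
Cdk1, chr10:69352913-69353032, minus strand: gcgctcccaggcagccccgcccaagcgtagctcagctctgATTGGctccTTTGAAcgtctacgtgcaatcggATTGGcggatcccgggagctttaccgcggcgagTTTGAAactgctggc
Cdc20, chr4:118437344-118437463, minus strand: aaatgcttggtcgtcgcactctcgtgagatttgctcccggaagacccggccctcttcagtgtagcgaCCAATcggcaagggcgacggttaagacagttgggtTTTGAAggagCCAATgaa
Ube2c, chr2:164769809-164769928, plus strand: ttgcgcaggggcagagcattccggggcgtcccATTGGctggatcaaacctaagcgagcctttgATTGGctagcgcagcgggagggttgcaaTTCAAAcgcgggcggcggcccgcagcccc
Top2a, chr11:99024190-99024389, minus strand: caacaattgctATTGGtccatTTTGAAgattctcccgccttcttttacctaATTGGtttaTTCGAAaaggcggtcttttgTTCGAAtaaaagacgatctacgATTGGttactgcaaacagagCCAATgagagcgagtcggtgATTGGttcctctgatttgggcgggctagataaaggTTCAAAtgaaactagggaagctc
Mcm5, chr8:75109309-75109408, plus strand: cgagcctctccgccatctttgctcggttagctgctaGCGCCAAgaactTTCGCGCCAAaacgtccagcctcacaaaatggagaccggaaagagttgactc
Cdc6, chr11:98907971-98908070, plus strand: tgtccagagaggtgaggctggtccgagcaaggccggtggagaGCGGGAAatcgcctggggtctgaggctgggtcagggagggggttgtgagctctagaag
E2f8, chr7:48881657-48881756, minus strand: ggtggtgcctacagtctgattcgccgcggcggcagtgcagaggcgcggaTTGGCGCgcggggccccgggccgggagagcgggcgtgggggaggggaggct
H2bc3, chr13:23746554-23746703, plus strand: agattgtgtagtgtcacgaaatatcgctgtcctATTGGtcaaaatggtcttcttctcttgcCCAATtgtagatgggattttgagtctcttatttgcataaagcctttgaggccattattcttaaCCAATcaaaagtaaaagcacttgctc

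In these stretches Cdk1, the kinase of mitosis (-1.60 ± 0.13), had a CHR word beginning 15 and another 71 bases upstream of the start. Cdc20, an activator of the anaphase-promoting complex (-1.20 ± 0.11), had a CHR word 18 bases upstream. Top2a had CCAAT words at 58, 78, 98, 149 and 189 bases. Mcm5, a subunit of the replicative helicase (-0.87 ± 0.09), had E2F words beginning 149, 152 and 164 bases upstream, the first 2 of which overlap. A CHR word lay in 78.2% of mitosis windows, 22.9% of replication windows and 14.4% of the windows of all genes tested. As shares of windows, of which a gene can have several, an E2F word lay in 21.8% of mitosis windows, 64.6% of replication windows and 16.1% of all tested. CCAAT lay in 72.7% of mitosis windows and 87.0% of histone windows, against 37.8% of all tested. Both CHR and CCAAT lay in 67.3% of mitosis windows and 5.91% of all tested. RefSeq windows matched 52 of 62 mitosis genes, 41 of 50 replication genes and 45 of 50 histone genes.

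Histone genes had a lower median still. Of 50 replication-dependent histone genes, whose messages end in a stem-loop instead of a poly(A) tail, 48 were lower and 0 higher, with a median log2 ratio of -1.56. H2bc3 stood at 275 and 241 CPM in PSGL1lo libraries, against 935 and 867 CPM in PSGL1hi libraries (-1.80 ± 0.10, adjusted p = 4.1e-11, edgeR). The linker histone H1f5 stood at 281 and 275 CPM in PSGL1lo and 934 and 797 CPM in PSGL1hi libraries (-1.64 ± 0.08). Summed over the list, histone transcripts came to 5154 and 4361 CPM in PSGL1lo and 14629.9 and 12477 CPM in PSGL1hi libraries. These genes are near-identical copies and reads may have been divided among them, so single members are uncertain. Of 4 entries under older histone symbols 3 were lower.

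Other RNAs without a poly(A) tail went the opposite way. Of 111 small nucleolar, spliceosomal and related RNA genes 68 were higher and 0 lower, with a median log2 ratio of 0.85. The count of higher genes was 42 without PSGL1lo replicate 2 and 32 without PSGL1hi replicate 2. Snora81, a guide of ribosomal RNA pseudouridylation, stood at 129 and 119.85 CPM in PSGL1lo and 32.6 and 29.8 CPM in PSGL1hi libraries. The box C/D RNA Snord17 stood at 1027 and 873 CPM in PSGL1lo and 545 and 464 CPM in PSGL1hi (0.91 ± 0.08), and the nucleolar RNA Rnu3a at 968 and 1001 CPM in PSGL1lo and 589 and 381 CPM in PSGL1hi (1.02 ± 0.12). Many of these RNAs lie in introns of other genes, and which strand setting the counting had is not given. Their rise moved with the larger ribosomal RNA share of the PSGL1lo libraries, whose part was not tested. Rn45s is itself a member of the list, so the list and this share are not separate. For Rn45s itself the call (0.56 ± 0.16) was lost without PSGL1lo replicate 1 (0.44) or PSGL1hi replicate 2 (0.37). The long nuclear RNA Malat1 also rose, to 8131 and 8862 CPM in PSGL1lo libraries, against 4639 and 4703 CPM in PSGL1hi libraries (0.86 ± 0.08).

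Follicular helper genes had the highest median of the T cell lists. Of 26 members 20 were higher and 1 lower, with a median log2 ratio of 0.87 (0.80 with Ascl2, at 0 counts in PSGL1hi, set to its bound). Beyond the receptor, cytokine and costimulatory genes of the group, Fam43a rose by 1.72 ± 0.16, Gpm6b by 1.68 ± 0.13 and the nuclear factor Tox2 by 1.26 ± 0.13. P2rx7, an ATP-gated channel, stood at 468 and 458 CPM in PSGL1lo and 206 and 197 CPM in PSGL1hi libraries (1.20 ± 0.07). Tnfsf8, the CD30 ligand, stood at 203 and 203 CPM in PSGL1lo and 101 and 103 CPM in PSGL1hi (0.99 ± 0.10), and Btla, an inhibitory receptor of follicular helper cells, at 180.34 and 177 CPM in PSGL1lo and 94.1 and 100.01 CPM in PSGL1hi (0.88 ± 0.08). The libraries of the fractions did not overlap for any of these 6 genes, as for 66.0% of all genes tested. Il4 was the lower member (-0.95 ± 0.22), a call lost without PSGL1lo replicate 1 (-0.76).

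The TCF-1 stem and memory group was divided. Of its 22 members 11 were higher and 2 lower, with a median log2 ratio of 0.28. Tcf7 stood at 283 and 305 CPM in PSGL1lo libraries, against 56.9 and 56.7 CPM in PSGL1hi libraries (2.37 ± 0.08), and the E protein inhibitor Id3 at 18.2 and 15.9 CPM in PSGL1lo against 6.64 and 7.13 CPM in PSGL1hi (1.30 ± 0.14). Slamf6, a homotypic receptor used by progenitor-like T cells, rose by 1.06 ± 0.07 and the repressor Bach2 by 0.91 ± 0.18.

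The receptor chains of interleukin-6 rose. In the interleukin-6 group 8 of 16 members were higher and 3 lower, with a median log2 ratio of 0.34. Il6ra, the interleukin-6 binding chain, stood at 19.3 and 16.8 CPM in PSGL1lo and 5.90 and 3.67 CPM in PSGL1hi libraries (1.92 ± 0.18), and Il6st, which encodes gp130, at 94.9 and 88.2 CPM in PSGL1lo and 50.3 and 48.5 CPM in PSGL1hi (0.89 ± 0.10). Their feedback inhibitor Socs3 rose by 0.56 ± 0.09, while the cytokine gene Il6 (-1.69 ± 0.35) and Lifr, a gp130 partner (-1.88 ± 0.37), fell. Among 17 common gamma chain genes 7 were higher and 3 lower (4 higher without PSGL1hi replicate 2), with a median of 0.07. Il9r rose by 0.82 ± 0.10, and Il2ra, the high-affinity interleukin-2 receptor chain, stood at 46.7 and 54.8 CPM in PSGL1lo and 146 and 124 CPM in PSGL1hi libraries (-1.41 ± 0.11).

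Several ligands of the TNF family rose. Of 30 ligands and receptors 13 were higher and 5 lower, with a median log2 ratio of 0.18. The count of lower genes was 3 without PSGL1lo replicate 2 or PSGL1hi replicate 1. Tnfsf11, which encodes RANKL, the osteoclast and lymphoid tissue ligand, stood at 192 and 192 CPM in PSGL1lo libraries, against 73.2 and 80.9 CPM in PSGL1hi libraries (1.31 ± 0.11, adjusted p = 9e-09, edgeR). Lta, the gene of lymphotoxin alpha, stood at 11.6 and 11.8 CPM in PSGL1lo and 3.28 and 4.24 CPM in PSGL1hi libraries (1.63 ± 0.16), and its membrane partner Ltb at 361 and 336 CPM in PSGL1lo and 224 and 228 CPM in PSGL1hi (0.63 ± 0.08). Tnfsf14, which encodes LIGHT, rose by 0.89 ± 0.09 and Tnf by 0.78 ± 0.12. Fasl, the death ligand of cytotoxic cells, went the other way (-0.87 ± 0.08), as did the receptor gene Tnfrsf9 (-0.69 ± 0.11).

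Chemokine receptors separated the fractions in both directions. Of 18 tested 6 were higher and 7 lower, with a median log2 ratio of -0.27. Ccr6 stood at 7.67 and 7.65 CPM in PSGL1lo and 1.08 and 1.38 CPM in PSGL1hi libraries (2.63 ± 0.23). Cxcr3, the receptor of interferon-induced chemokines, stood at 510.17 and 458 CPM in PSGL1lo and 307 and 307 CPM in PSGL1hi (0.66 ± 0.07), and Cxcr4 at 339 and 335 CPM in PSGL1lo and 226 and 228 CPM in PSGL1hi (0.57 ± 0.07). Besides Ccr2 and Ccr1, the lower receptors included Cx3cr1, at 20.6 and 14.6 CPM in PSGL1lo and 61.4 and 58.5 CPM in PSGL1hi libraries (-1.77 ± 0.16). Of 24 chemokine ligands 2 were higher and 11 lower (7 lower by DESeq2), with a median of -0.77. Cxcl10, a ligand of CXCR3, stood at 26.1 and 20.7 CPM in PSGL1lo and 7.49 and 7.26 CPM in PSGL1hi libraries (1.66 ± 0.14). Ccl3 (-1.39 ± 0.09) and Ccl4 (-1.49 ± 0.11), chemokines of inflammation, fell.

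Adhesion and egress lists held more lower than higher genes. Of 25 integrins and adhesion genes 4 were higher and 10 lower, with a median log2 ratio of -0.17. Itgal, the LFA-1 chain, stood at 1101 and 1104 CPM in PSGL1lo and 718 and 610.27 CPM in PSGL1hi libraries (0.73 ± 0.07). The chains of mucosal and collagen-binding integrins, Itgb7 (-0.79 ± 0.09) and Itga1 (-1.70 ± 0.13), fell. Of 12 egress and homing genes 2 were higher and 6 lower, with a median of -0.32. S1pr4, a sphingosine-1-phosphate receptor, fell (-0.66 ± 0.10). Of 19 genes of PSGL1 and of selectin ligand synthesis 3 were higher and 8 lower, with a median of -0.18. Fut7, the fucosyltransferase that completes the selectin-binding sugar, stood at 4.25 and 5.23 CPM in PSGL1lo and 9.59 and 9.77 CPM in PSGL1hi libraries (-1.03 ± 0.21). The sulphating enzyme Tpst1 (-0.69 ± 0.17) and Spn, the gene of the sialomucin CD43 (-0.52 ± 0.06), fell too, whereas the sialyltransferase St3gal1 (0.61 ± 0.08) rose. Gcnt1, which branches the sugar core, was at -0.14 ± 0.13 and did not pass.

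Cytotoxic and killer receptor genes were lower in PSGL1lo cells. Of 19 granule genes 2 were higher (0 without PSGL1lo replicate 1 and 1 without PSGL1hi replicate 2) and 13 lower, with a median log2 ratio of -0.67. Perforin (Prf1) stood at 15.9 and 15.7 CPM in PSGL1lo and 62.8 and 61.4 CPM in PSGL1hi libraries, and Gzma at 22.3 and 24.05 CPM in PSGL1lo and 89.7 and 109.87 CPM in PSGL1hi. Of 17 killer lectin-like receptors and partners 4 were higher (2 without PSGL1lo replicate 1, PSGL1lo replicate 2 or PSGL1hi replicate 1) and 9 lower, with a median of -1.47. Klrd1, which pairs with NKG2 chains, stood at 8.04 and 8.82 CPM in PSGL1lo and 40.9 and 50.1 CPM in PSGL1hi libraries (-2.43 ± 0.17), and Klrk1, which encodes NKG2D, at 5.81 and 8.63 CPM in PSGL1lo and 43.8 and 48.7 CPM in PSGL1hi (-2.67 ± 0.13). Clec2i, a ligand of such receptors, rose (0.56 ± 0.11). In the interferon-induced membrane protein family 3 of 5 members were lower and 0 higher, with a median of -1.33. Killer receptors and the Ifitm genes are families of similar copies, so their counts are uncertain.

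Most markers of other cells that express these genes were lower as well. Their lists share members with the cytotoxic and killer receptor lists, so the counts are not independent. Cd8a stood at 5.14 and 4.31 CPM in PSGL1lo and 47.3 and 46.2 CPM in PSGL1hi libraries, and Cd8b1 at 6.70 and 7.97 CPM in PSGL1lo and 30.4 and 31.4 CPM in PSGL1hi. Of 6 CD8 T cell markers 5 were lower and 1 higher, and their summed level was 168 and 171 CPM in PSGL1lo and 361 and 361 CPM in PSGL1hi libraries. Of 9 natural killer and innate lymphoid markers 8 were lower and 0 higher, with sums of 440.15 and 451 CPM in PSGL1lo and 989 and 937 CPM in PSGL1hi libraries. Ncr1, the defining natural killer receptor, had 0 counts in both PSGL1lo libraries and 0 and 0.130 CPM in the PSGL1hi libraries. The part of these cells in the cytotoxic results was not tested. In bulk samples, fewer cells of a type and less RNA per cell cannot be told apart.

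Most genes of the type 2 and regulatory lists passed the test, in both directions. Of 15 type 2 genes 2 were higher and 9 lower, with a median log2 ratio of -0.95. Il13, a cytokine of allergic inflammation and fibrosis, stood at 11.2 and 14.8 CPM in PSGL1lo and 60.7 and 56.7 CPM in PSGL1hi libraries (-2.17 ± 0.19), the largest fall of the list. The cytokine gene Il5 stood at 4.32 and 3.20 CPM in PSGL1lo and 14.8 and 16.2 CPM in PSGL1hi libraries (-2.05 ± 0.26), and the interleukin-25 receptor Il17rb at 3.95 and 3.27 CPM in PSGL1lo and 10.3 and 10.4 CPM in PSGL1hi (-1.52 ± 0.27). Gata3, the lineage factor, did not pass (0.15 ± 0.09) except without PSGL1hi replicate 1 (0.29), and the receptor Ccr4 rose (0.99 ± 0.11). Of 20 regulatory T cell genes 6 were higher and 9 lower, with a median of -0.15. Foxp3, which defines the regulatory lineage, stood at 4.25 and 3.59 CPM in PSGL1lo libraries, against 20.5 and 16.6 CPM in PSGL1hi libraries (-2.25 ± 0.16), the largest fall of the list. Il10 stood at 28.3 and 30.1 CPM in PSGL1lo and 91.9 and 108 CPM in PSGL1hi libraries (-1.78 ± 0.10), while Izumo1r, the folate receptor 4, stood at 176 and 168 CPM in PSGL1lo and 88.5 and 92.4 CPM in PSGL1hi (0.93 ± 0.08).

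Type 1 genes were divided. Of 16 members 4 were higher and 5 lower, with a median log2 ratio of -0.12. The lineage factor Tbx21 was at 122 and 107 CPM in PSGL1lo and 131 and 116 CPM in PSGL1hi libraries and did not pass (-0.10 ± 0.11). The interleukin-18 receptor chains Il18r1 (-0.70 ± 0.07) and Il18rap (-0.88 ± 0.10) fell, and the interleukin-27 receptor Il27ra (0.37 ± 0.08) rose. Of 12 Th17 genes 3 were higher and 4 lower, with a median of 0.01. Il23r stood at 4.77 and 5.49 CPM in PSGL1lo and 0.983 and 1.38 CPM in PSGL1hi libraries (2.11 ± 0.29). Among 19 effector regulators 2 were higher and 7 lower, median -0.15, with falls of Eomes (-0.92 ± 0.11) and Pparg (-1.82 ± 0.18). Among 19 inhibitory receptor genes 4 were higher and 4 lower, median -0.05. The ectonucleotidase Nt5e rose (1.10 ± 0.10) and Havcr2, which encodes TIM-3, fell (-1.72 ± 0.11).

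Among 25 cytokines and growth factors 5 were higher and 10 lower, with a median log2 ratio of -0.50. Csf2, which encodes GM-CSF, stood at 8.86 and 7.06 CPM in PSGL1lo and 20.5 and 22.7 CPM in PSGL1hi libraries (-1.45 ± 0.15), and Csf1 fell (-0.80 ± 0.09). Ebi3, a subunit of interleukin-27 and interleukin-35, rose (0.89 ± 0.15). Of 15 interleukin-1 family receptor genes 1 was higher and 4 lower, with a median of -0.05. The interleukin-33 receptor Il1rl1 stood at 68.1 and 69.7 CPM in PSGL1lo and 273 and 293 CPM in PSGL1hi libraries. Of 12 SLAM family genes 3 were higher and 3 lower, with a median of -0.02. Cd84 rose (0.43 ± 0.07) and Cd48 fell (-0.71 ± 0.08).

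**Figure D3:**
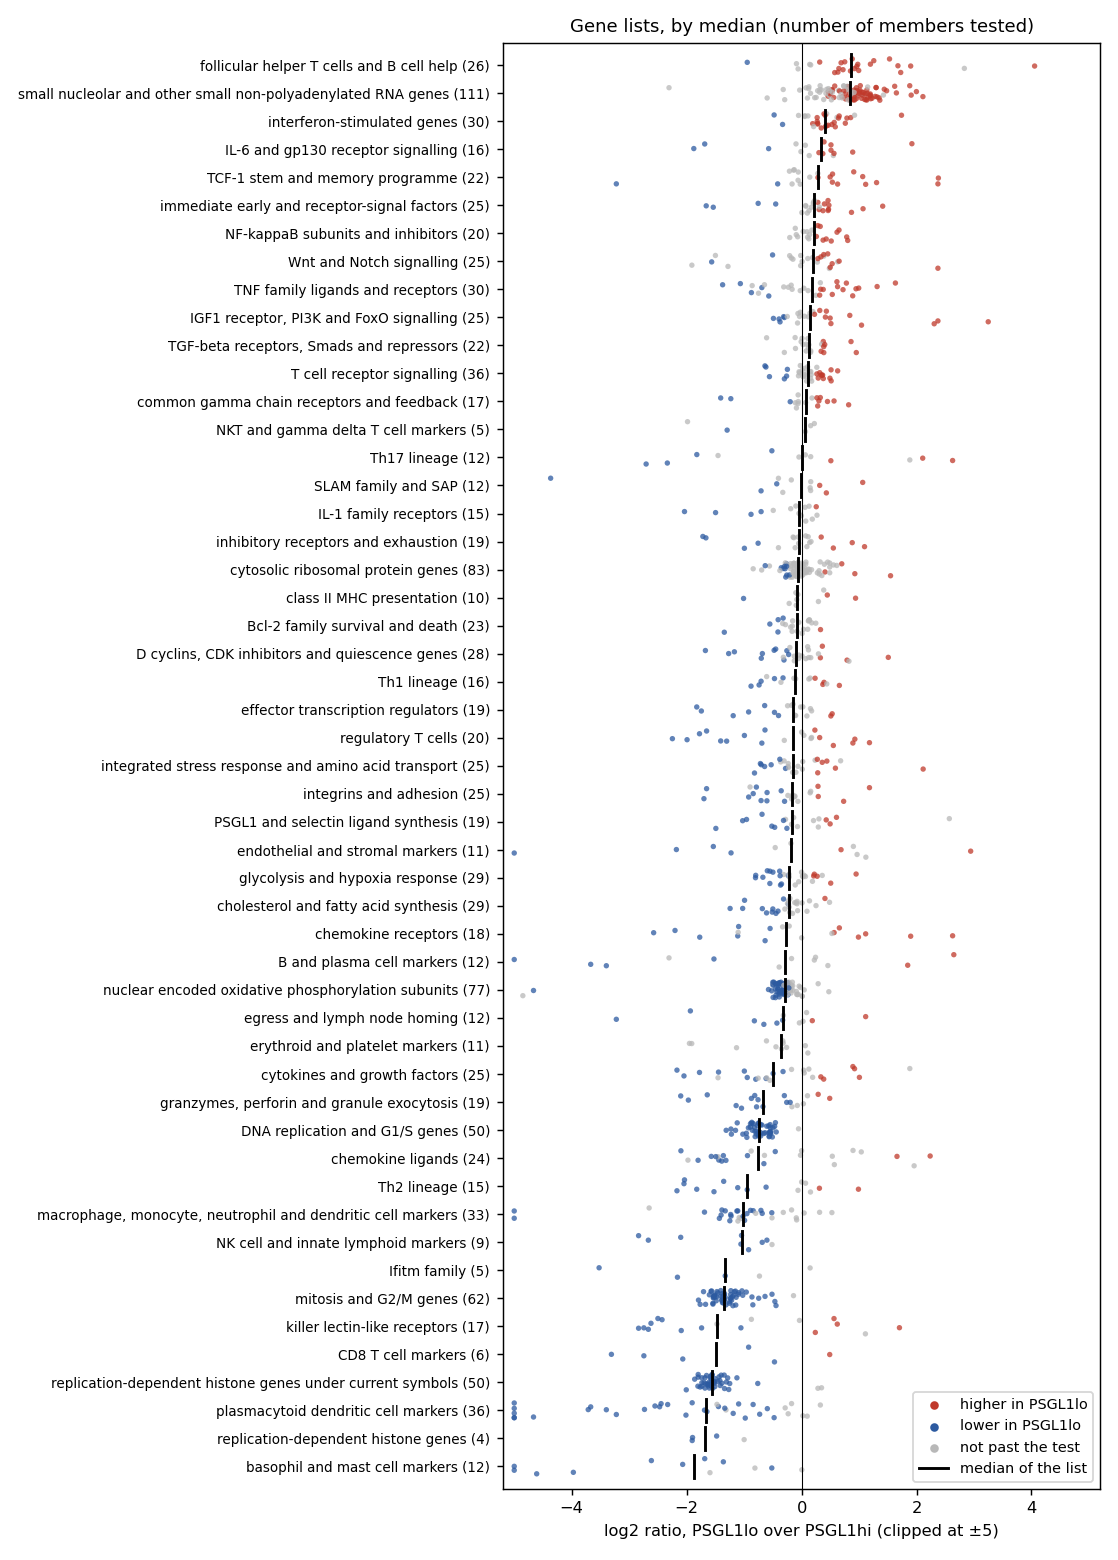
Log2 ratios of PSGL1lo over PSGL1hi (x axis) of the members tested in each of 51 gene lists (rows, in order of the median, black bar), with higher members in red, lower in blue and those not past the test in grey. Follicular helper genes have a median of 0.87 and mitosis genes one of -1.34, with all but 1 of the mitosis points in blue.

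The signalling lists other than that of the Bcl-2 family held more higher than lower genes. In the NF-kappaB group 10 of 20 were higher and 0 lower, with a median log2 ratio of 0.22. Rel, the lymphoid subunit c-Rel, stood at 159 and 165 CPM in PSGL1lo and 96.9 and 88.9 CPM in PSGL1hi libraries (0.80 ± 0.11), and Relb rose by 0.52 ± 0.10. Of 25 immediate early and receptor-signal factors 11 were higher and 4 lower (7 higher without PSGL1hi replicate 2), with a median of 0.22. The feedback inhibitor Spry1 stood at 33.9 and 26.8 CPM in PSGL1lo and 11.8 and 10.9 CPM in PSGL1hi (1.41 ± 0.14), its relative Spry2 fell (-1.54 ± 0.16), and Egr1 rose (1.07 ± 0.14). Of 36 T cell receptor signalling genes 11 were higher and 6 lower, median 0.11 (3 lower without PSGL1lo replicate 2). Nfatc2 (0.63 ± 0.08) and Nfatc1 (0.51 ± 0.08), the calcium-activated factors, rose.

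The growth factor group contained Lrig1, Tcf7 and Igf1r, all among the leading rises. Of 25 IGF1 receptor, PI3K and FoxO genes 11 were higher and 5 lower, with a median log2 ratio of 0.15 (3 lower without PSGL1lo replicate 2). Igf1r stood at 35.8 and 38.7 CPM in PSGL1lo and 7.63 and 7.43 CPM in PSGL1hi libraries (2.31 ± 0.14), and the insulin receptor Insr at 66.97 and 63.1 CPM in PSGL1lo and 33.6 and 29.5 CPM in PSGL1hi (1.04 ± 0.12). Sesn3, a FoxO target that restrains mTOR, rose by 0.84 ± 0.07. Of 25 Wnt and Notch genes 8 were higher and 2 lower, median 0.19, among them Maml2 (0.65 ± 0.09) and Notch1 (0.38 ± 0.08). The count of lower genes was 4 with the 4 spleen libraries alone in the model. Of 22 TGF-beta genes 7 were higher and 0 lower, median 0.12, led by the coreceptor Tgfbr3 (0.95 ± 0.12). Of 30 interferon-stimulated genes 20 were higher and 2 lower, median 0.41, with Ifit3 at 0.85 ± 0.16 and Stat2 at 0.64 ± 0.11. Without PSGL1lo replicate 1, 12 interferon genes were higher.

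Lists of mitochondrial and metabolic genes held more lower than higher genes. Of 77 nuclear encoded oxidative phosphorylation subunits 0 were higher and 43 lower, with a median log2 ratio of -0.30. The count of lower genes was 18 without PSGL1lo replicate 1 and 18 without PSGL1hi replicate 2. Atp5b, the catalytic subunit of ATP synthase, stood at 827 and 813 CPM in PSGL1lo and 1123 and 1186 CPM in PSGL1hi libraries (-0.49 ± 0.07). Of 29 glycolysis and hypoxia genes 5 were higher (2 without PSGL1lo replicate 2, 3 without PSGL1lo replicate 1 or PSGL1hi replicate 1) and 12 lower, median -0.22. Ldha, lactate dehydrogenase, stood at 432 and 466 CPM in PSGL1lo and 665 and 650.38 CPM in PSGL1hi (-0.55 ± 0.07). Of 29 sterol and fatty acid synthesis genes 1 was higher and 11 lower, median -0.22, with falls of Hsd17b7 (-1.03 ± 0.13) and of the mevalonate pathway enzyme Mvd (-0.68 ± 0.17, a call lost without PSGL1lo replicate 2, at -0.62). Of 25 stress response and amino acid genes 6 were higher (3 without PSGL1lo replicate 2 and 2 without PSGL1hi replicate 2) and 7 lower, median -0.16, with Slc1a4, a neutral amino acid carrier, at 7.67 and 6.21 CPM in PSGL1lo and 1.45 and 1.73 CPM in PSGL1hi (2.12 ± 0.23). Psat1 (-0.64 ± 0.08) and Psph (-0.72 ± 0.13), enzymes of serine synthesis, were among its lower members. Ribosomal protein genes had 4 higher and 10 lower of 83, median -0.06, and 3 were lower without PSGL1lo replicate 1, 3 without PSGL1lo replicate 2 and 2 without PSGL1hi replicate 2. With any 1 spleen library left out 1 or 2 ribosomal protein genes were higher. Of 23 Bcl-2 family genes 1 was higher and 5 lower, median -0.08, with the largest fall in Birc5 (-1.34 ± 0.15), which encodes survivin and also acts in mitosis. Many oxidative phosphorylation and ribosomal protein messages are short, and the order of ratios by transcript length stands beside these counts.

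Several genes listed as markers of plasmacytoid dendritic cells were nearly absent from PSGL1lo libraries and present in PSGL1hi libraries. Siglech, a surface receptor of these cells, had 3 counts in the PSGL1lo libraries together and 1040 in the PSGL1hi libraries, or 0.149 and 0.0653 CPM and 22.6 and 24.03 CPM. Fcrla had 0 counts in PSGL1lo and 199 in PSGL1hi libraries, and Dntt 0 in PSGL1lo and 99 in PSGL1hi. Ly6d had 1 count in PSGL1lo and 191 in PSGL1hi libraries, and the kallikrein Klk1 1 in PSGL1lo and 128 in PSGL1hi. Jchain, the antibody joining chain that these cells also express, stood at 3.20 and 5.23 CPM in PSGL1lo and 40.7 and 49.01 CPM in PSGL1hi libraries. Of 36 markers, listed after these values had been seen, 0 were higher and 28 lower, with a median log2 ratio of -1.67. Their sum was 670.47 and 671 CPM in PSGL1lo and 1176 and 1192 CPM in PSGL1hi libraries. This sum is not a measure of plasmacytoid dendritic cells. It lay between 949 and 1260 CPM in the liver libraries, where Siglech was at most 0.225 CPM. Irf8, Ccr9 and Ly6c2, members of T cell or myeloid lists, are among the 36 markers. Siglech is also a member of the macrophage, monocyte, neutrophil and dendritic list below. The B and plasma cell list below has the same lowest fitted ratio (-9.62) as these markers, so those lists share a member. The part of plasmacytoid dendritic cells in the results of all these lists was not tested.

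**Figure D4:**
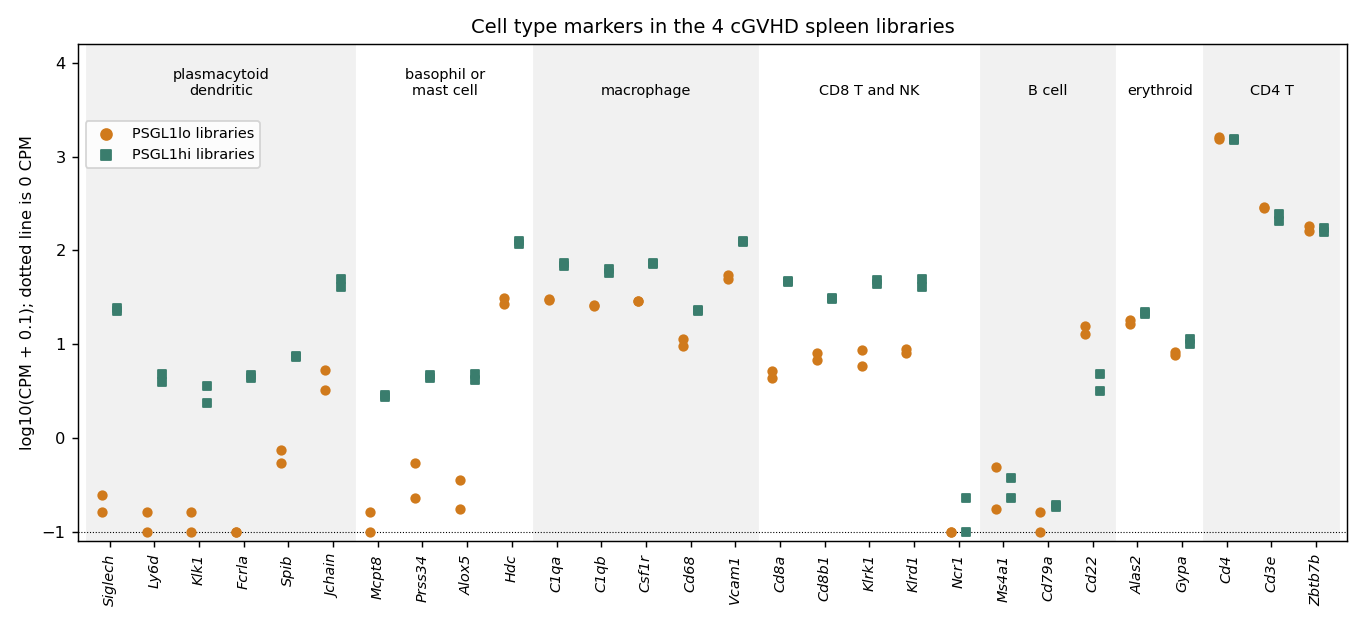
Levels of cell type markers, log10(CPM + 0.1), in the PSGL1lo libraries (orange circles, left of each pair) and the PSGL1hi libraries (green squares, right), with CD4 T cell genes at the far right for scale. Plasmacytoid dendritic and basophil markers other than Jchain and Hdc lie under 1 CPM in PSGL1lo cells, and every one drawn is higher in PSGL1hi cells, while Ms4a1 and Cd79a are low in both.

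Basophil genes showed the same contrast. Mcpt8, a basophil protease, had 1 count in the PSGL1lo libraries and 120 in the PSGL1hi libraries, Prss34 had 8 in PSGL1lo and 200 in PSGL1hi, and the lipoxygenase Alox5 had 5 in PSGL1lo and 195 in PSGL1hi. Of 12 basophil and mast cell markers, also listed after the values were seen, 9 were lower and 0 higher, with a median log2 ratio of -1.88 (-1.64 with Cd200r3, at 0 in PSGL1lo, at its bound). Their sum was 71.7 and 69.8 CPM in PSGL1lo and 229.62 and 239 CPM in PSGL1hi libraries, with Hdc as the most abundant member. Hdc, Il6, Cyp11a1 and Il13, reported above, are genes that basophils also express. The source of these and of the other type 2 transcripts was not tested.

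Transcripts of the macrophage, monocyte, neutrophil and dendritic list were present in both fractions, and many were lower in PSGL1lo. This list also contains Siglech, counted above among plasmacytoid dendritic markers, and 13 of its members did not pass. Of 33 macrophage, monocyte, neutrophil and dendritic markers 0 were higher and 20 lower, median -1.02, with sums of 522 and 524 CPM in PSGL1lo and 1114 and 1136 CPM in PSGL1hi libraries. Csf1r, the macrophage growth factor receptor, stood at 29.1 and 28.9 CPM in PSGL1lo and 71.9 and 73.8 CPM in PSGL1hi libraries (-1.33 ± 0.23), and Vcam1 at 49.8 and 55.02 CPM in PSGL1lo and 124 and 126 CPM in PSGL1hi (-1.25 ± 0.14). B and plasma cell markers summed to 131 and 134 CPM in PSGL1lo and 185 and 183 CPM in PSGL1hi libraries, most of it Xbp1, with 2 of 12 higher and 4 lower (2 lower without PSGL1lo replicate 2), and Ms4a1 at 0.0745 and 0.392 CPM in PSGL1lo and 0.281 and 0.130 CPM in PSGL1hi. Their median was -0.28 (0.02 with genes at 0 set to their bound). Of 10 class II genes 2 were higher and 1 lower, median -0.07, with H2-Aa at 209 and 193 CPM in PSGL1lo and 208 and 218 CPM in PSGL1hi libraries. Erythroid and platelet markers gave 0 higher and 0 lower of 11, median -0.35, and 5 lower with the 4 spleen libraries alone in the model. Of 11 endothelial and stromal markers 2 were higher and 4 lower (2 lower without PSGL1lo replicate 2, PSGL1hi replicate 1 or PSGL1hi replicate 2), median -0.18, and of 5 NKT and gamma delta markers 0 higher and 1 lower, median 0.07. Endothelial and stromal markers summed to 108 and 109 CPM in PSGL1lo and 78.5 and 75.4 CPM in PSGL1hi libraries, most of it Pecam1, an adhesion molecule of endothelium and leukocytes, at 98.1 and 99.00 CPM in PSGL1lo and 62.4 and 60.1 CPM in PSGL1hi (0.69 ± 0.08). NKT and gamma delta markers summed to 159 and 162 CPM in PSGL1lo and 143 and 154 CPM in PSGL1hi libraries, and erythroid and platelet markers to 63.8 and 60.8 CPM in PSGL1lo and 78.00 and 84.4 CPM in PSGL1hi. Cdh5, the endothelial cadherin, had 1 count in PSGL1lo and 154 in PSGL1hi libraries.

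The spleen contrast was then set beside the same contrast in liver and lung, with a test of each difference. The difference of the log2 ratios (spleen minus liver) passed in 943 of 13780 genes (6.84%), 579 with the spleen effect higher (4.2%) and 364 lower (2.64%), and against lung in 2282 (16.6%), 1523 higher (11.1%) and 759 lower (5.51%). The liver count lay between 331 without liver PSGL1hi replicate 2 and 2497 without liver PSGL1lo replicate 2. Spleen libraries carry library numbers of another series than those of liver and lung in the labels, and these differences cannot be told apart from a difference of series. Across genes, the log2 ratio in spleen correlated with that in liver at Pearson's r = 0.38 and in lung at 0.36, over 13780 genes that are not independent. Of the 4483 genes called in spleen, 1733 were called in the same direction in liver (38.7% of those in spleen and 60.5% of those in liver) and 2013 in lung (44.9% and 44.3%).

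**Figure D5:**
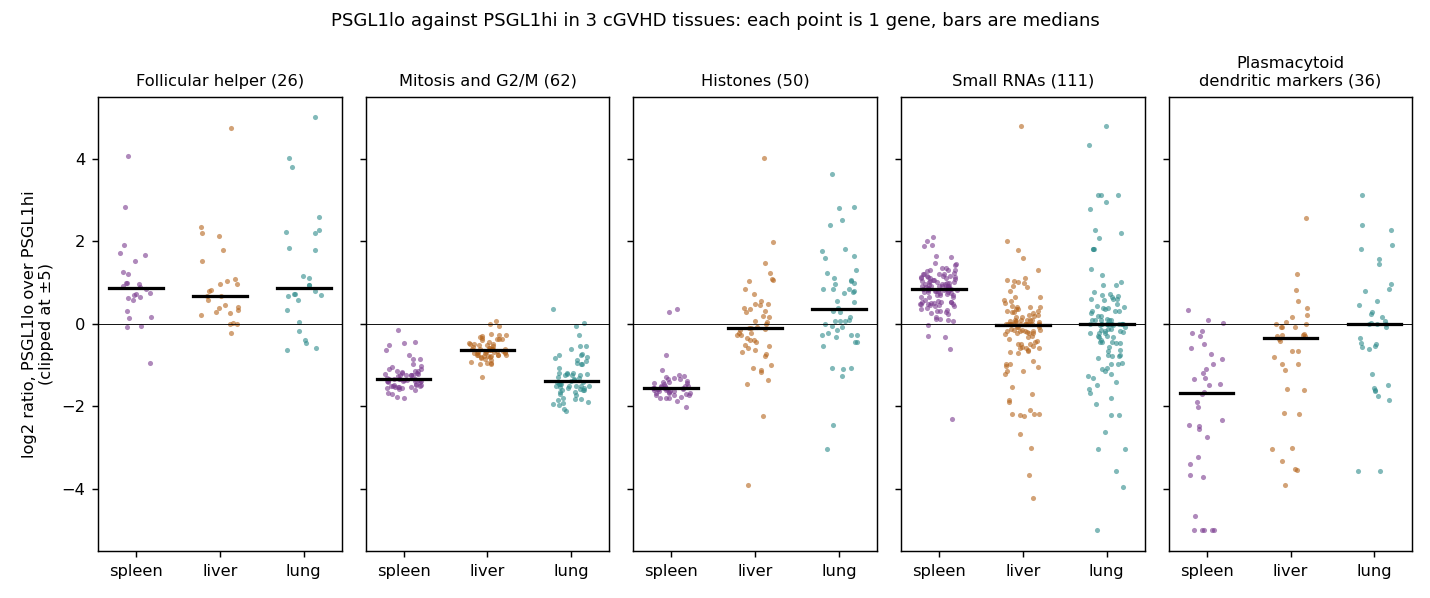
Log2 ratio of PSGL1lo over PSGL1hi (y axis) for the genes of 5 groups in spleen, liver and lung of cGVHD mice (x axis); each point is a gene and bars are medians. Mitosis genes have medians of -1.34, -0.63 and -1.39 in spleen, liver and lung, and histones of -1.56, -0.11 and 0.35.

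Mitosis genes fell more in spleen than in liver. The difference passed for 38 of 62, all of them lower in spleen, with medians of -1.34 in spleen and -0.63 in liver. Against lung, where the median was -1.39, it passed for 6. Of 50 replication genes the difference from liver passed for 4, and that from lung for 15, of which 14 had fallen less in spleen. Among follicular helper genes the difference passed for 8 of 26 against liver, 5 of them with the spleen effect higher. Against lung it passed for 17 of these genes, only 7 of them with the spleen effect higher. The median of the list was 0.87 in spleen, 0.67 in liver and 0.87 in lung. Ccr6 rose in spleen (2.63 ± 0.23), against 0.30 ± 0.16 in liver and 0.21 ± 0.15 in lung, and the difference passed for both (spleen minus liver 2.33 ± 0.28, adjusted p = 4.8e-05, and spleen minus lung 2.42 ± 0.28, adjusted p = 3.4e-06, edgeR). In liver its level was 11.3 ± 0.847 CPM in PSGL1lo against 9.21 ± 1.02 CPM in PSGL1hi cells, and in lung 19.6 ± 3.30 CPM in PSGL1lo against 16.9 ± 2.20 CPM in PSGL1hi cells (SD, n = 2 libraries each). Igf1r rose in spleen (2.31 ± 0.14), against 0.30 ± 0.13 in liver (difference 2.01 ± 0.19, adjusted p = 3e-06, edgeR). It also rose in lung, by 1.33 ± 0.12, less than in spleen (spleen minus lung 0.98 ± 0.18, adjusted p = 0.00076, edgeR).

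Many histone and plasmacytoid dendritic genes could not be sized in the other tissues because of their low levels there. The 50 histone genes summed to between 4361 and 14629.9 CPM in the 4 spleen libraries, between 51.4 and 62.8 CPM in the 4 of liver and between 95.99 and 120.42 CPM in the 4 of lung. In liver 37 of them, and in lung 32, were under 1 CPM in all 4 libraries. The difference from liver passed for 21 and that from lung for 25, with the spleen effect lower in each. Rmrp and Rpph1, small RNAs that also lack a poly(A) tail, together took between 1.47% and 2.22% of the counts of the 4 spleen libraries and at most 0.000232% in those of liver and lung. H2bc3, whose promoter is printed above, had liver averages of 0.661 ± 0.280 CPM (PSGL1lo) and 0.533 ± 0.118 CPM (PSGL1hi). Among 36 plasmacytoid dendritic markers the difference passed for 12 against liver and 19 against lung. Of these markers 17 were under 1 CPM in every liver library and 13 in every lung library. The other markers were not, and the list summed to between 949 and 1260 CPM in liver and between 776 and 1171 CPM in lung libraries. In liver Siglech was at 0.107 ± 0.0917 CPM (PSGL1lo) and 0.149 ± 0.108 CPM (PSGL1hi). The fold differences between tissues of genes at such low levels have no measured size.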

How the data were processed

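Per the labels' protocols, total RNA of sorted CD4+ T cells (Qiagen RNeasy) went into libraries with the Kapa mRNA HyperPrep kit. Rmrp and Rpph1, which lack a poly(A) tail, were abundant in spleen libraries but nearly absent from those of liver and lung. Whether all libraries were prepared alike was not tested. The deposited values are raw read counts per gene, made with TopHat2 2.0.8 and HTSeq on mm9, per the submitters' processing notes. The annotation, strand setting and handling of reads with several matches are not given in the labels or notes used here, so overlapping genes and near-identical copies are uncertain. Of 25017 entries, filterByExpr in edgeR 4.0.16 (R 4.3.3; minimum count 10) left 13780; 26 symbols read as dates and stayed as deposited. After TMM scaling, 1 quasi-likelihood model with group means covered the 14 libraries, leaving 7 residual degrees of freedom and a BCV of 7.35%. Contrasts were tested 2-sided with Benjamini-Hochberg adjustment, and SEs came from the F statistic. Levels are CPM of single libraries. Replicate counts differed by more than sampling noise in every group (chi-square per degree of freedom 2.97 to 18.6).

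Members and lists were chosen with earlier results of these data known, and the histone, small RNA, plasmacytoid dendritic and basophil lists after their values were seen. Named genes came from the 25 called genes with the largest ratio in each direction (10 CPM or more in the higher group, no overlap), the 15 with the largest CPM difference in each direction, list members from the largest ratio down, the defining members, the 8 largest tissue differences each way, and Selplg. Some genes these rules pick are not reported here. Transcript lengths came from GENCODE vM21 (98.1% of genes matched) and promoter sequences from RefSeq (GRCm38.p6), used with no mm9 coordinates. The test of the spleen comparison was checked on simulated data, with 12 false calls (6.28%). It recovered 73.1% of 67 genes changed 1.5-fold, 95.5% of 67 changed 2-fold and 100% of 66 changed 4-fold. Alternatives were RLE scaling, no filter, DESeq2 1.42.0, limma 3.58.1 voom, a replicate block, the 4 spleen libraries alone and leaving out each library.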

Additional observations from a re-analysis of the deposited data

Results flagged for a closer look

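The results below stood out because the effect of the PSGL1lo fraction differed between tissues, by the test of the difference itself (edgeR's quasi-likelihood test, adjusted over 13780 genes). Each is a log2 difference, spleen minus the other tissue, with its SE, for up to 8 genes in each direction with the largest difference among those called with a group mean of at least 10 CPM. Series of libraries and tissue cannot be told apart in any of them. Against liver, the spleen effect was higher for Snord55 (3.83 ± 1.12), Itgax (2.79 ± 0.33), Abca13 (2.76 ± 0.80), Atf3 (2.51 ± 0.24), Ccr6 (2.33 ± 0.28), Nav1 (2.30 ± 0.33), Igf1r (2.01 ± 0.19) and Cd244a (1.82 ± 0.29). It was lower for Siglech (-7.49 ± 1.13), H2ac12 (-3.98 ± 0.94), H2bc13 (-2.98 ± 0.79), H3c11 (-2.65 ± 0.50), Cyp11a1 (-2.59 ± 0.32), Vcam1 (-2.59 ± 0.24) and H4c2 (-2.54 ± 0.70). The call of Snord55 was lost without spleen PSGL1lo replicate 1 (3.90), spleen PSGL1lo replicate 2 (3.76), liver PSGL1lo replicate 1 (2.65), liver PSGL1hi replicate 1 (3.73) or liver PSGL1hi replicate 2 (3.92). The call of Abca13 was lost without spleen PSGL1lo replicate 1 (2.81), spleen PSGL1lo replicate 2 (2.73), spleen PSGL1hi replicate 1 (2.76), spleen PSGL1hi replicate 2 (2.72), liver PSGL1lo replicate 1 (2.77) or liver PSGL1hi replicate 1 (1.22). The call of Siglech was lost without liver PSGL1lo replicate 1 (-6.12). The call of H2ac12 was lost without liver PSGL1lo replicate 1 (-1.55) or liver PSGL1hi replicate 2 (-3.44). The call of H2bc13 was lost without spleen PSGL1lo replicate 2 (-2.79), liver PSGL1lo replicate 1 (-1.82) or liver PSGL1hi replicate 2 (-2.17). The call of H3c11 was lost without liver PSGL1lo replicate 1 (-1.85). The call of H4c2 was lost without spleen PSGL1lo replicate 1 (-2.58), spleen PSGL1lo replicate 2 (-2.49), liver PSGL1lo replicate 1 (-1.99) or liver PSGL1hi replicate 1 (-1.70). Snord55, Abca13, the 4 histone genes and Siglech averaged under 1 CPM in both liver fractions, so their differences measure no size. A higher spleen effect was not always a rise in spleen. Itgax fell in spleen (log2 ratio -0.84) and in liver (-3.63). In spleen alone Snord55 (0.16), Atf3 (0.08), Nav1 (-0.15) and Cd244a (-0.40) did not pass. Atf3 (-2.44), Nav1 (-2.46) and Cd244a (-2.22) fell in liver.

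Against lung, the spleen effect was higher for Mir3068 (7.08 ± 1.45), Snord47 (3.10 ± 1.04), Gm12238 (2.69 ± 0.81), AW011738 (2.47 ± 0.20), Snora81 (2.43 ± 0.28), Ccr6 (2.42 ± 0.28), Atp8a2 (2.40 ± 0.24) and 2610024D14Rik (2.33 ± 0.40). It was lower for H3c7 (-4.35 ± 0.53), H2ac7 (-4.08 ± 1.05), H4c6 (-4.08 ± 1.11), H2ac21 (-3.59 ± 0.91), Tppp3 (-3.43 ± 0.77), H4c2 (-3.28 ± 0.59), H3c6 (-3.16 ± 0.63) and H4c8 (-3.13 ± 0.44). The call of Snord47 was lost without spleen PSGL1hi replicate 1 (3.29), spleen PSGL1hi replicate 2 (2.84), lung PSGL1lo replicate 1 (4.35), lung PSGL1lo replicate 2 (2.42), lung PSGL1hi replicate 1 (2.81) or lung PSGL1hi replicate 2 (3.37). The call of Gm12238 was lost without spleen PSGL1lo replicate 2 (2.51), spleen PSGL1hi replicate 2 (2.56), lung PSGL1lo replicate 1 (2.25) or lung PSGL1hi replicate 2 (1.58). The call of H2ac7 was lost without lung PSGL1lo replicate 2 (-3.83). The call of H4c6 was lost without lung PSGL1lo replicate 2 (-2.32), lung PSGL1hi replicate 1 (-4.14) or lung PSGL1hi replicate 2 (-4.01). The call of H2ac21 was lost without lung PSGL1hi replicate 2 (-2.61). Mir3068 and Gm12238 averaged under 1 CPM in both fractions of lung, Snord47, 2610024D14Rik and each histone gene averaged under 1 CPM in at least 1 of them, and Tppp3 had 3 counts in spleen PSGL1lo and 128 in spleen PSGL1hi cells, so these differences measure no size.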

How the results depend on the processing

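The count of called genes in the spleen comparison was 4483, and 4466 with RLE scaling, 4613 with no filter on low counts, 4069 by DESeq2, 4316 by limma voom, 4766 with the 4 spleen libraries alone and 4376 without histone and small RNA genes, an alternative chosen after seeing the data. Between 66.4% and 98.7% of the called genes were called again under each of the 11 alternatives. Leaving out 1 library gave 3072 to 3917, with 1401 to 1880 higher and 1599 to 2037 lower. The difference from liver gave 331 to 2497 (199 to 1577 with the spleen effect higher, 130 to 920 lower), and that from lung 1517 to 2047 (902 to 1314 and 473 to 837), when 1 library was left out. The cause of these changes was not tested.

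Replicate numbers 1 and 2 are shared by the fractions, but the deviations of same-numbered spleen libraries correlated at 0.23 over 8685 genes in only 2 pairs, so the numbers are not taken as pairs. With a replicate block 4599 genes were called in spleen, 1274 differed from liver and 2489 from lung.

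Of 197 named genes 180 kept direction and side of the threshold in each alternative that gave a spleen value. With 1 spleen library left out the log2 ratio reached 0 or changed sign for 7, none of them called: Ascl2 (0 to 3.83), Atf3 (-0.0086 to 0.16), Ms4a1 (-1.39 to 0.93), Nav1 (-0.43 to 0.16), Rpph1 (-0.092 to 0.31), Snord55 (-0.38 to 0.99) and Zbtb7b (-0.028 to 0.14). Snord55 passed without PSGL1hi replicate 1. A spleen call was lost in at least 1 alternative for Cd200r3, H2ac21, H4c6, Il4, Mir3068, Mvd, Rmrp, Rn45s and Snord47. By limma voom the tissue difference was not called for Snord55, Abca13, H2ac12, H2bc13, H3c11 and H4c2 against liver or for Snord47, Gm12238, H2ac7 and H4c6 against lung, and Snord47 also missed with the block (adjusted p = 0.062). The cause was not tested. Counts of 1 or 2 members in a gene list, on either side, often moved by 1 or 2 when a library was left out and carry no weight.

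With 2 libraries a group, leaving out 1 leaves a single library that is assumed to vary like the other groups. At 0 to 3 counts in a fraction, a level is bounded but a ratio is not sized.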

Other observations

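GVHD-free spleen PSGL1lo cells, from recipients of marrow alone, give levels to set the leading genes against. They were not tested here, and GVHD-free recipients were given no splenocytes. Sostdc1 stood at 36.4 and 38.4 CPM in cGVHD PSGL1lo libraries and 1.92 and 2.55 CPM in cGVHD PSGL1hi libraries, with 90.5 and 101 CPM in GVHD-free PSGL1lo libraries, so that the GVHD-free libraries were the highest. The same order held for Lrig1 (272 and 289.93 CPM in GVHD-free PSGL1lo libraries), Tcf7 (618 and 601 CPM) and Igf1r (138 and 142 CPM). Efnb2 was instead highest in cGVHD PSGL1lo libraries, with 8.47 and 8.09 CPM in GVHD-free ones, and so was Ttn (642 and 617 CPM). Hdc stood at 2.01 and 1.36 CPM in GVHD-free PSGL1lo libraries, below both cGVHD fractions, and Siglech at 3.17 and 2.94 CPM, between them. Mitosis genes summed to 4168 and 4246 CPM in cGVHD PSGL1lo, 9086 and 9713 CPM in cGVHD PSGL1hi and 3488 and 3464 CPM in GVHD-free PSGL1lo libraries. Histone genes summed to 3851 and 3979 CPM in the GVHD-free libraries, which lies below every cGVHD spleen library.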
